A study of Homo sapiens with 8 samples.

Results

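Ribosome biogenesis factors are the proteins that build ribosomal subunits in the nucleolus and are not themselves part of the finished ribosome. 55 genes for such factors were chosen by name, with earlier results of these data known. They were found by symbol among 55075 gene rows in all, of which 32200 had at least 1 read in some library. All 55 passed the filter on low counts that left 17471 genes for testing. The RNA came from HCT116, a line of human colon cancer cells, either unmodified (wild type, WT) or with a knockout (KO) of FBXW7, which encodes the substrate-recognition subunit of an SCF ubiquitin ligase. Cells were heated for 1 h at 42 °C, and part of them then recovered for 2 h at 37 °C. The 4 groups, each of 2 libraries, were FBXW7 KO cells after recovery, FBXW7 KO cells at heat shock, WT cells after recovery and WT cells at heat shock. Libraries of unheated cells were not analysed here, so every response below is recovery relative to heat shock. The labels do not say whether the KO line is a single clone. The series' design text speaks of biological replicates without describing the cultures, so the p-values measure the spread between these libraries.

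Ribosome assembly starts with transcription of the long ribosomal RNA precursor by RNA polymerase I. Small nucleolar ribonucleoproteins (snoRNPs) then modify the precursor, the small-subunit processome folds and cleaves its 18S part, and separate sets of factors mature the 40S and 60S subunits. Most of these factors act transiently and are recycled. Their genes are known as targets of the transcription factor MYC, whose protein is a known substrate of FBXW7.

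The libraries held 24531569 and 27187797 counts in KO recovery, 26102649 and 34387618 in KO heat shock, 15507896 and 15654696 in WT recovery, and 20248480 and 19979779 in WT heat shock. The members had between 207 and 98893 reads per library. Levels are given as CPM, the count of a gene scaled to a fixed library size. FBXW7 itself had 14.0 and 13.8 CPM in KO recovery, 17.4 and 14.9 CPM in KO heat shock, 23.0 and 21.7 CPM in WT recovery, and 33.5 and 31.4 CPM in WT heat shock. These levels were lower in KO than in WT cells, with a log2 fold change of -0.68 ± 0.11 (adjusted p = 6.5e-05) after recovery and -1.01 ± 0.10 (adjusted p = 1.1e-06) at heat shock, but were not absent. Whole-gene counts include exons outside any deleted part, and the labels do not name the deleted part. Colon epithelial markers were present, with a summed level of 2345 to 2459 CPM in KO recovery, 1938 to 2045 CPM in KO heat shock, 2455 to 2525 CPM in WT recovery and 2654 to 2985 CPM in WT heat shock. Of those 8 markers, 2 were higher and 4 lower in KO than in WT cells after recovery, and CLDN4, a tight-junction protein, was the lowest at -2.23. At heat shock 5 of the 8 were lower in KO cells, and the median was -0.64. The part of these shifts in the values below was not tested. The summed leukocyte markers reached at most 0.381 CPM, with CD3E at 0 in every library, and the endothelial markers at most 0.462 CPM. The erythroid markers summed to at most 1.43 CPM, and the 1 of them that was tested was higher in KO than in WT cells after recovery (2.14). The fibroblast or mesenchymal markers summed to 8.13 to 13.9 CPM, nearly all from COL1A1 and VIM, with LUM at 0 in every library.

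Since many of these genes are known MYC targets, their promoters were searched for CACGTG, the E-box that MYC with its partner MAX binds. The window ran from 250 bases before to 50 bases after the annotated start in the RefSeq sequences of GRCh38.p14, and the motif reads the same on both strands. It was present in 21 of the 46 members with a promoter in that table (45.7%), against 8.77% of the 27305 genes there and 12.5% of the 9656 coding genes that were tested and had an entry. The table held no entry for NOLC1, RRP12, TCOF1, NOP58, DDX18, URB2, RRP1B, RRS1 and BOP1. 21 of the 23 hexamers lay within 50 bases of the start. The stretches below, with the motif in capitals, belong to members that moved in opposite directions in the 2 lines. Those of BYSL (chr6:41921515-41921544, plus strand), FBL (chr19:39846356-39846385, minus strand), NOP2 (chr12:6568242-6568268, minus strand) and PES1 (chr22:30591880-30591909, minus strand) come from genes higher after KO recovery and lower after WT recovery. Those of GAR1 (chr4:109815781-109815810, plus strand) and NOC3L (chr10:94362903-94362932, minus strand) come from genes that went the other way.
BYSL: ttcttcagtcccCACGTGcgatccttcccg
FBL: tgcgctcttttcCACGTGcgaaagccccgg
NOP2: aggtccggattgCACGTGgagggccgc
PES1: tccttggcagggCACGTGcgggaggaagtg
GAR1: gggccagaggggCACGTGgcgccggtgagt
NOC3L: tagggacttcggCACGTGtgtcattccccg
The hexamer starts 29 bases into the transcript in BYSL, 7 in FBL, 36 in NOP2, 14 in PES1, 32 in GAR1 and 20 in NOC3L. The KO calls of GAR1, NOP2 and PES1 and the WT call of GAR1 were lost in some fits with a library left out, as given below. The part of the motif in the direction of the responses was not tested. After WT recovery 3 of the 21 members with the motif rose and 15 fell, and of the 25 without it 2 rose and 18 fell. After KO recovery 9 of the 21 rose and 5 fell, against 6 and 4 of the 25. A match describes the letters and does not show that a factor binds there.

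MYC mRNA was measured at 600.0 and 549 CPM in KO recovery, 329 and 350.0 CPM in KO heat shock, 266 and 251 CPM in WT recovery, and 802 and 751 CPM in WT heat shock. Its log2 fold change was 0.76 ± 0.10 (adjusted p = 1e-07) for recovery over heat shock in KO cells and -1.59 ± 0.10 (adjusted p = 6.2e-15) in WT cells. In both lines the recovery and heat shock libraries were apart, in opposite directions. These are RNA levels, the MYC protein was not measured in the files used here, and the part of MYC in the responses below was not tested.

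Per length of transcript, NPM1 (nucleophosmin, an abundant nucleolar chaperone) had the highest level of the 55 genes, at 877 CPM per kilobase over all libraries. NCL (nucleolin, an RNA-binding protein of the nucleolus) followed at 606 and FBL (fibrillarin, the methyltransferase of box C/D snoRNPs) at 247 CPM per kilobase. The lowest were BOP1 at 5.76, UTP20 at 6.77 and URB1 at 7.57 CPM per kilobase. Summed over the 55 genes, the level was 14155 and 13439 CPM in KO recovery, 13272 and 13184 CPM in KO heat shock, 8243 and 8153 CPM in WT recovery, and 11486 and 10678 CPM in WT heat shock. The WT recovery libraries were the lowest of all, and both KO groups lay above both WT groups. CPM give the share of a library, so in these bulk samples fewer cells of a kind and less of a transcript per cell cannot be told apart. Without NCL and NPM1 the sums were 9338 and 9034 CPM in KO recovery, 8943 and 8940.4 CPM in KO heat shock, 5278 and 5176 CPM in WT recovery, and 7200 and 6826 CPM in WT heat shock, in the same order.

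After recovery most of the 55 genes fell in WT cells, while in KO cells more rose than fell. Each of the other lists of assembly factors, given further below, had more falls than rises in KO recovery. In KO recovery 19 members rose, 12 fell and 24 did not pass (edgeR's quasi-likelihood test, adjusted p under 0.05 over all genes tested), with a median log2 fold change of 0.09 against -0.02 over all genes. Of all genes 21.0% rose and 21.8% fell. In WT recovery 5 members rose, 41 fell and 9 did not pass, with a median of -0.48 against 0.01 over all genes, of which 25.2% rose and 26.4% fell. The test of the difference of these responses, KO minus WT, passed for 33 members in the direction of KO and for 8 in the direction of WT, with a median of 0.59 against -0.03 over all genes. It passed for 28.7% and 28.1% of all genes. 20 members had a difference of at least 2-fold toward KO, and 1 (NOC3L) toward WT, against 12.5% and 13.8% of all genes.

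The KO counts rest on few libraries. Recovery and heat shock libraries of the same number form a pair in the fit, so leaving out either library of a KO pair leaves 1 pair for that response. Without KO recovery replicate 1, 12 members rose and 2 fell in KO recovery, and without KO heat shock replicate 1, 10 rose and 2 fell. Without KO recovery replicate 2, 15 rose and 7 fell, and without KO heat shock replicate 2, 16 rose and 7 fell. The count of 5 members that rose in WT cells became 1 without WT recovery replicate 1 or without WT heat shock replicate 1, and 8 with upper-quartile scaling, which moved the median of all genes to 0.10 in that comparison. The 8 members with a difference toward WT became 5 without KO recovery replicate 1 or KO heat shock replicate 1.

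18 of the 55 genes rose in KO recovery and fell in WT recovery (FBL, NOP56, RRP9, NHP2, NOP10, PWP2, TBL3, NOL6, RRP12, BYSL, NOB1, URB2, NOP2, NOP16, PPAN, BOP1, PES1 and RRS1). Over all genes tested, 11.9% did so. GAR1 and NOC3L did the reverse, as did 10.9% of all genes. For all 20 the difference between the lines passed. NOP58, UTP15, LTV1 and RRP1B fell in both lines, as did 2.05% of all genes. No member rose in both by edgeR, also at an unadjusted p under 0.05 (0 members) and by DESeq2 (0 members). The share of all genes that rose in both was not computed, so this count has no background to stand beside. NPM1 and WDR12 passed in neither, but both passed in both with the offsets for base composition and length described below. Of the 18, 12 kept both calls without KO recovery replicate 1, 10 without KO heat shock replicate 1, 15 without KO recovery replicate 2 and 16 without KO heat shock replicate 2. All 18 kept them whichever WT library was left out. FBL, NOP56, NHP2, NOP10, TBL3, RRP12, BYSL, NOP16, PPAN and BOP1 kept them whichever of the 8 libraries was left out. With the DESeq2 Wald test 15 of the 18 kept both calls (all but BOP1, URB2 and RRS1), and with upper-quartile scaling 16 (all but URB2 and NOB1).

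**Figure D1:**
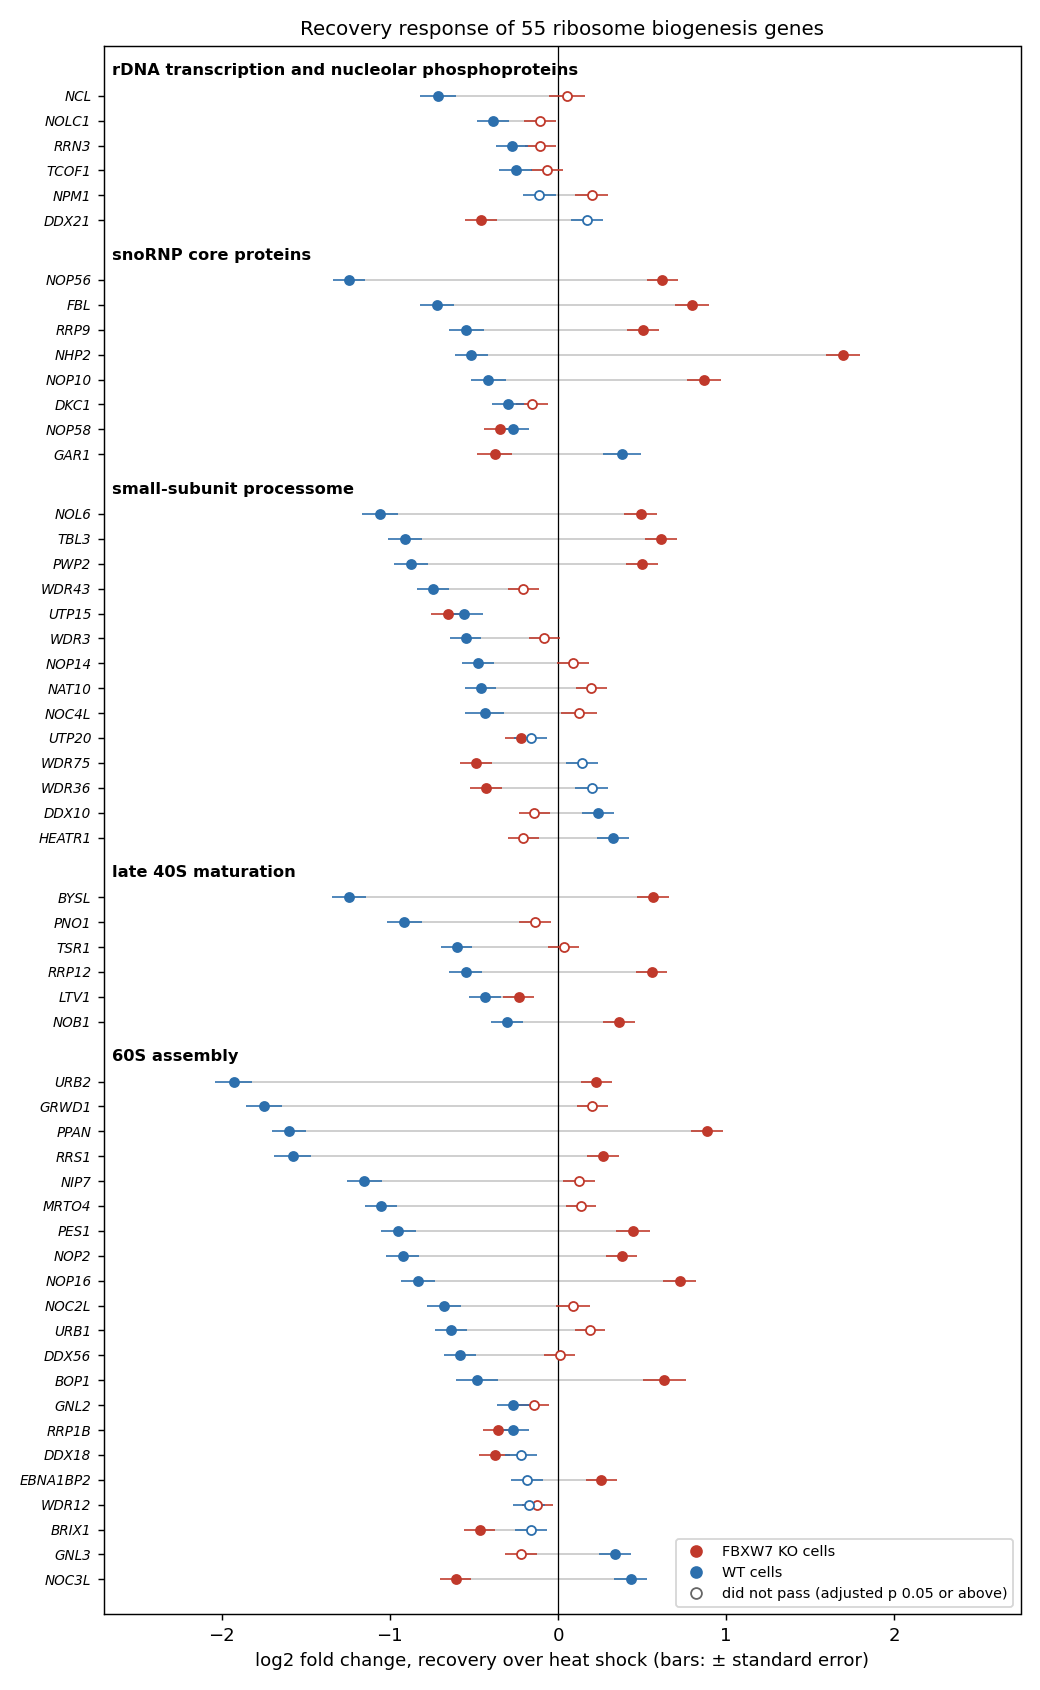
Log2 fold change of recovery over heat shock (x axis) for each of the 55 genes (rows, grouped by role), in FBXW7 KO cells (red) and WT cells (blue). Points are the fitted values, bars ± 1 standard error, open points did not pass the test; in KO cells 19 genes rose and 12 fell, and in WT cells 5 rose and 41 fell.

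Among the 6 genes of ribosomal DNA transcription and the nucleolar phosphoproteins, 1 fell and 5 did not pass in KO recovery, while 4 fell and 2 did not pass in WT recovery. NCL was at 3108 and 2803 CPM in KO recovery, 2879.8 and 2810.3 CPM in KO heat shock, 1506 and 1487 CPM in WT recovery, and 2792 and 2155 CPM in WT heat shock. Its WT recovery libraries stood apart below all others, while the KO recovery and KO heat shock libraries overlapped. The log2 fold change was 0.05 ± 0.11 (adjusted p = 0.73) in KO cells and -0.71 ± 0.11 (adjusted p = 1.3e-06) in WT cells, and the difference of 0.77 ± 0.15 (adjusted p = 6e-05) passed. NPM1 was at 1709 and 1601 CPM in KO recovery, 1449 and 1433 CPM in KO heat shock, 1459 and 1489.9 CPM in WT recovery, and 1494 and 1697 CPM in WT heat shock. All 8 libraries lay within a narrow range, and neither response passed, at 0.20 ± 0.10 (adjusted p = 0.11) in KO cells and -0.11 ± 0.10 (adjusted p = 0.37) in WT cells. DDX21, an RNA helicase that links RNA polymerase I transcription to rRNA processing, was at 641 and 645 CPM in KO recovery, 888 and 878 CPM in KO heat shock, 519 and 509 CPM in WT recovery, and 439.7 and 473 CPM in WT heat shock. The KO heat shock libraries were the highest, and DDX21 fell in KO recovery by a log2 fold change of -0.46 ± 0.10 (adjusted p = 0.0002), while in WT cells the value was 0.17 ± 0.10 (adjusted p = 0.13). Without KO recovery replicate 1 or KO heat shock replicate 1 its KO value was -0.42 or -0.44 and no longer passed (adjusted p = 0.053 and 0.054). In WT recovery NOLC1 (-0.39), a chaperone of snoRNPs, RRN3 (-0.28), the initiation factor of RNA polymerase I, and TCOF1 (-0.25), a cofactor of ribosomal DNA transcription, fell as well. RRN3 lost that call without either library of WT replicate 2 (-0.19 and -0.20), and TCOF1 without either library of WT replicate 1 (-0.13 and -0.13), KO recovery replicate 2 (-0.26) or either KO heat shock library (-0.25 and -0.25).

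The snoRNP proteins showed the widest spread in KO cells, where 5 of 8 rose and 2 fell, while in WT recovery 7 fell and 1 rose. Box C/D snoRNPs methylate rRNA, with FBL as the enzyme and NOP56 and NOP58 as paired core proteins. FBL was at 476 and 388 CPM in KO recovery, 239 and 256 CPM in KO heat shock, 270.2 and 260.1 CPM in WT recovery, and 476 and 400.3 CPM in WT heat shock. The KO recovery libraries lay above KO heat shock, and the WT recovery libraries lay below WT heat shock. The log2 fold change was 0.80 ± 0.10 (adjusted p = 1.1e-07) in KO cells and -0.72 ± 0.10 (adjusted p = 3.9e-07) in WT cells. NOP56 was at 558 and 526 CPM in KO recovery, 359 and 346 CPM in KO heat shock, 161 and 158 CPM in WT recovery, and 394 and 362 CPM in WT heat shock, with KO recovery the highest and WT recovery the lowest. Its log2 fold change was 0.62 ± 0.09 (adjusted p = 2.1e-06) in KO cells and -1.24 ± 0.10 (adjusted p = 1.5e-12) in WT cells. NOP58, its partner, did not move in opposite ways, at -0.34 ± 0.10 in KO cells and -0.27 ± 0.10 in WT cells. RRP9, the U3-specific protein, was at 72.9 and 64.5 CPM in KO recovery, 46.5 and 50.0 CPM in KO heat shock, 32.3 and 29.4 CPM in WT recovery, and 46.7 and 43.4 CPM in WT heat shock. Here too KO recovery was the highest and WT recovery the lowest, with log2 fold changes of 0.51 ± 0.10 (adjusted p = 6.8e-05) in KO cells and -0.55 ± 0.10 (adjusted p = 4.7e-05) in WT cells. The KO call of RRP9 was lost without KO recovery replicate 1 (0.39) or KO heat shock replicate 1 (0.37), and that of NOP58 with any 1 of the 4 KO libraries left out (between -0.38 and -0.29). The WT call of NOP58 was lost without either library of WT replicate 2 (-0.10 and -0.11).

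Box H/ACA snoRNPs convert uridines of rRNA to pseudouridine, with DKC1 (dyskerin) as the enzyme and NHP2, NOP10 and GAR1 as its partners. NHP2 (chr5:178149460-178153967, minus strand, GRCh38) was at 227 and 166 CPM in KO recovery, 62.2 and 57.7 CPM in KO heat shock, 122 and 114 CPM in WT recovery, and 164 and 173 CPM in WT heat shock. The KO heat shock libraries were far below the other 6, and the KO recovery libraries differed from each other more than those of the other groups. Its KO response of 1.70 ± 0.10 (adjusted p = 2e-15) was the largest rise of any member and the only one past 2-fold in KO recovery, while the WT value was -0.52 ± 0.10 (adjusted p = 4.6e-05). NOP10 was at 129 and 109 CPM in KO recovery, 59.2 and 71.3 CPM in KO heat shock, 64.1 and 60.2 CPM in WT recovery, and 84.1 and 81.6 CPM in WT heat shock. KO recovery was the highest group, and the other 3 lay between 59.2 and 84.1 CPM, with a log2 fold change of 0.87 ± 0.10 (adjusted p = 3.2e-08) in KO cells and -0.42 ± 0.10 (adjusted p = 0.0013) in WT cells. GAR1 went the other way, at 48.8 and 57.7 CPM in KO recovery, 69.2 and 68.8 CPM in KO heat shock, 41.4 and 39.3 CPM in WT recovery, and 27.0 and 35.4 CPM in WT heat shock. KO heat shock was the highest and WT heat shock the lowest group, with responses of -0.38 ± 0.10 (adjusted p = 0.0034) in KO cells and 0.38 ± 0.11 (adjusted p = 0.0048) in WT cells. GAR1 lost its KO call without KO recovery replicate 1 (-0.23, adjusted p = 0.34) or KO heat shock replicate 1 (-0.25), and its WT call without WT recovery replicate 1 (0.13, adjusted p = 0.49) or WT heat shock replicate 1 (0.12). DKC1 had -0.16 ± 0.09 in KO cells, which did not pass, and -0.30 ± 0.10 in WT cells, a fall that was lost without WT recovery replicate 1 (-0.23) or WT heat shock replicate 1 (-0.24).

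Some pairs of genes from 1 particle therefore did not keep 1 ratio. The level of NHP2 over that of GAR1 was 4.66 and 2.87 in KO recovery, 0.899 and 0.838 in KO heat shock, 2.94 and 2.89 in WT recovery, and 6.08 and 4.87 in WT heat shock. KO heat shock was the lowest and WT heat shock the highest. NOP56 over NOP58 was 2.90 and 2.64 in KO recovery, 1.44 and 1.40 in KO heat shock, 1.30 and 1.30 in WT recovery, and 2.94 and 2.20 in WT heat shock. In the 60S pair of NOC2L over NOC3L the ratio was 5.80 and 5.08 in KO recovery, 3.27 and 3.43 in KO heat shock, 2.49 and 2.39 in WT recovery, and 6.50 and 4.27 in WT heat shock. In each of the 6 pairs computed, the others being NOP10 over GAR1, PWP2 over WDR36 and PES1 over WDR12, the ratio was higher in recovery than in heat shock in KO cells and lower in WT cells, with no overlap within a line. The pairs were chosen with the responses known, so their shared direction is not a separate test. The ratios are of CPM not divided by length. In NHP2 over GAR1, NOP56 over NOP58, PWP2 over WDR36 and PES1 over WDR12 the first gene has the transcript richer in G+C. The transcript of NOP10 is shorter than that of GAR1 (554 against 1224 bases). Responses went with G+C share and, in KO cells, with length, as given below. The part of these trends in the ratios was not tested.

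**Figure D2:**
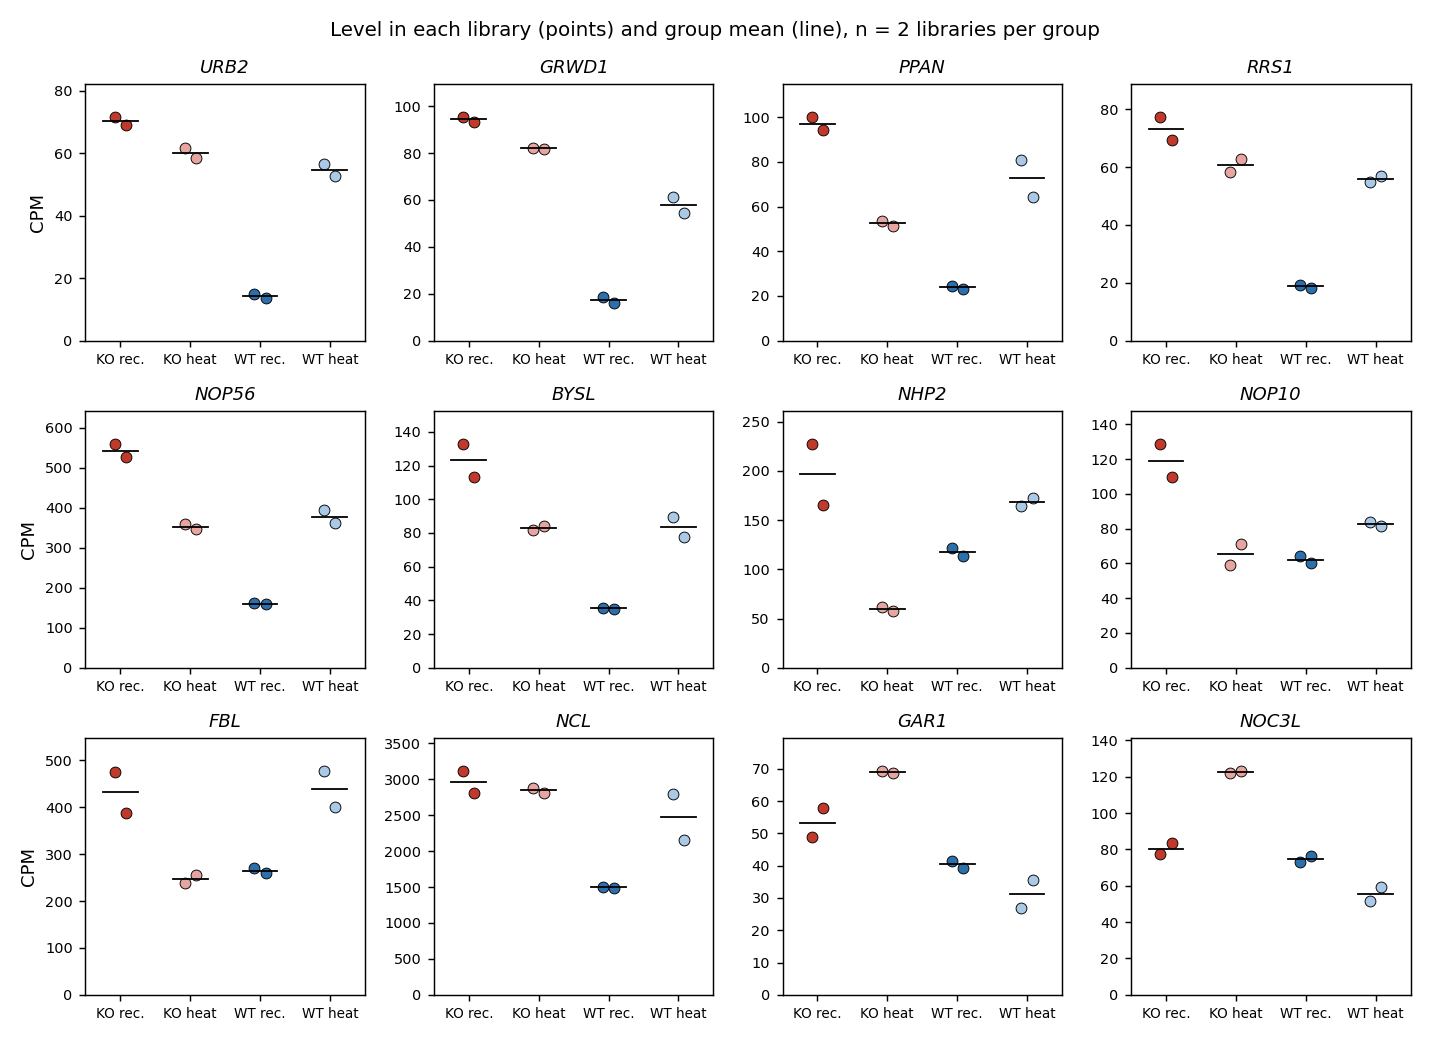
Level of 12 members in CPM (y axis from 0) in each of the 4 groups (x axis: KO recovery, KO heat shock, WT recovery, WT heat shock). Points are single libraries and lines the mean of 2; from URB2 to BYSL the WT recovery points lie below all others, while in GAR1 and NOC3L KO heat shock is the highest group.

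Of the 14 genes of the small-subunit processome, the particle that folds and cleaves the 18S precursor, 3 rose and 4 fell in KO recovery, and 2 rose and 9 fell in WT recovery. PWP2, TBL3, WDR3 and WDR36 belong to the UTP-B complex of the processome. PWP2 was at 165 and 151 CPM in KO recovery, 109 and 114 CPM in KO heat shock, 57.0 and 55.6 CPM in WT recovery, and 116 and 91.6 CPM in WT heat shock. TBL3 was at 77.8 and 71.3 CPM in KO recovery, 47.1 and 50.3 CPM in KO heat shock, 44.7 and 41.4 CPM in WT recovery, and 91.7 and 70.9 CPM in WT heat shock. In both the WT recovery libraries were the lowest, and KO recovery lay above KO heat shock. The responses were 0.50 ± 0.10 in KO and -0.87 ± 0.10 in WT cells for PWP2, and 0.61 ± 0.10 in KO and -0.91 ± 0.10 in WT cells for TBL3, all passing. WDR36 of the same complex was at 99.0 and 102 CPM in KO recovery, 136 and 135 CPM in KO heat shock, 93.4 and 89.7 CPM in WT recovery, and 73.9 and 86.0 CPM in WT heat shock. KO heat shock was its highest group, and it fell in KO recovery by -0.43 ± 0.09 while the WT value of 0.20 ± 0.10 did not pass. WDR3 did not pass in KO cells (-0.08 ± 0.09) and fell in WT cells (-0.55 ± 0.09). The KO call of PWP2 was lost without KO heat shock replicate 1 (0.41), and that of WDR36 without KO recovery replicate 1 (-0.38) or KO heat shock replicate 1 (-0.40).

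HEATR1, UTP15, WDR43 and WDR75 belong to the UTP-A complex, which joins the precursor early. UTP15 was at 53.6 and 61.7 CPM in KO recovery, 89.1 and 92.4 CPM in KO heat shock, 27.4 and 25.1 CPM in WT recovery, and 34.8 and 42.8 CPM in WT heat shock. Recovery was below heat shock in both lines, with responses of -0.66 ± 0.10 (adjusted p = 2.2e-06) in KO cells and -0.56 ± 0.11 (adjusted p = 7.4e-05) in WT cells. WDR75 was at 137 and 154 CPM in KO recovery, 205 and 203 CPM in KO heat shock, 99.3 and 93.3 CPM in WT recovery, and 83.9 and 90.5 CPM in WT heat shock. KO heat shock was the highest group and KO recovery the next, and the responses were -0.49 ± 0.09 in KO cells, which passed, and 0.14 ± 0.10 in WT cells, which did not. HEATR1 was at 132 and 151 CPM in KO recovery, 165 and 162 CPM in KO heat shock, 142 and 138 CPM in WT recovery, and 107 and 116 CPM in WT heat shock. In WT cells it rose by 0.33 ± 0.10, and in KO cells the value of -0.21 ± 0.09 did not pass. WDR43 fell in WT recovery (-0.74 ± 0.09) with -0.21 ± 0.09 in KO cells. WDR75 lost its KO call without KO recovery replicate 1 (-0.37) or KO heat shock replicate 1 (-0.40), and HEATR1 its WT call without WT recovery replicate 1 (0.23) or WT heat shock replicate 1 (0.22).

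Among the other processome genes, NOL6, a UTP-C subunit, was at 67.7 and 62.6 CPM in KO recovery, 45.7 and 46.9 CPM in KO heat shock, 23.8 and 22.0 CPM in WT recovery, and 53.3 and 42.5 CPM in WT heat shock. WT recovery was again the lowest group, and the responses were 0.49 ± 0.10 (adjusted p = 0.0001) in KO cells and -1.06 ± 0.11 (adjusted p = 6.4e-10) in WT cells. The KO call was lost without KO heat shock replicate 1 (0.42). UTP20, a large scaffold protein, was at 74.1 and 78.8 CPM in KO recovery, 89.6 and 88.7 CPM in KO heat shock, 38.5 and 35.9 CPM in WT recovery, and 43.6 and 39.8 CPM in WT heat shock. Both KO groups lay above both WT groups. Its KO response of -0.22 ± 0.09 (adjusted p = 0.0499) lay just under the threshold and was lost with any 1 of the 4 KO libraries left out (between -0.28 and -0.15). DDX10, an RNA helicase, was at 175 and 177 CPM in KO recovery, 199.8 and 188 CPM in KO heat shock, 115 and 117 CPM in WT recovery, and 98.2 and 97.9 CPM in WT heat shock. It rose in WT recovery by 0.24 ± 0.09 (adjusted p = 0.032), a call lost whichever of the 8 libraries was left out (between 0.22 and 0.24), and the KO value of -0.14 ± 0.09 did not pass. NOP14 and NOC4L, which form a complex, and NAT10, the acetyltransferase of 18S rRNA, fell in WT recovery (-0.48, -0.44 and -0.46) and did not pass in KO recovery (0.09, 0.12 and 0.20).

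All 6 genes of late 40S maturation fell in WT recovery, and in KO recovery 3 rose and 1 fell. BYSL, which acts on the pre-40S particle before its export, was at 133 and 113 CPM in KO recovery, 81.6 and 83.8 CPM in KO heat shock, 35.5 and 35.1 CPM in WT recovery, and 89.5 and 77.7 CPM in WT heat shock. The WT recovery libraries were below all others by more than the spread of any group, and the KO recovery libraries were the highest. Its responses were 0.57 ± 0.09 (adjusted p = 1.1e-05) in KO cells and -1.24 ± 0.10 (adjusted p = 7.2e-12) in WT cells. RRP12, a factor of pre-ribosome export known mainly from yeast, was at 114 and 115 CPM in KO recovery, 77.6 and 77.7 CPM in KO heat shock, 59.8 and 54.2 CPM in WT recovery, and 94.5 and 73.4 CPM in WT heat shock. NOB1, the endonuclease that cuts the mature end of 18S rRNA, was at 191 and 174 CPM in KO recovery, 136 and 148 CPM in KO heat shock, 151 and 141 CPM in WT recovery, and 189.8 and 171 CPM in WT heat shock. For both genes KO recovery lay above KO heat shock, and WT recovery lay below WT heat shock. The responses of RRP12 were 0.56 ± 0.09 in KO and -0.55 ± 0.10 in WT cells and those of NOB1 0.36 ± 0.09 in KO and -0.31 ± 0.10 in WT cells, all passing. The KO call of NOB1 was lost without KO recovery replicate 1 (0.26) or KO heat shock replicate 1 (0.23). PNO1, the partner of NOB1, fell in WT recovery by -0.91 ± 0.11 and had -0.14 ± 0.09 in KO cells. TSR1 fell in WT cells (-0.60) with 0.03 in KO cells. LTV1 fell in both lines, by -0.23 ± 0.09 in KO and -0.43 ± 0.10 in WT cells, and lost the KO call with any 1 of the 4 KO libraries left out (between -0.31 and -0.14).

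The 21 genes of 60S assembly held the deepest falls in WT cells, where 15 fell and 2 rose, and 8 rose and 4 fell in KO recovery. URB2, a factor of early 60S assembly (chr1:229626234-229660199, plus strand, GRCh38), was at 71.5 and 68.9 CPM in KO recovery, 61.6 and 58.4 CPM in KO heat shock, 15.0 and 13.7 CPM in WT recovery, and 56.6 and 52.8 CPM in WT heat shock. The WT recovery libraries stood far below the other 6, and the KO recovery libraries were a little above KO heat shock. Its WT response of -1.93 ± 0.11 (adjusted p = 6.3e-16) was the largest fall of any member, and its KO response was 0.23 ± 0.09 (adjusted p = 0.046). GRWD1, known in yeast as a chaperone of a large-subunit ribosomal protein, was at 95.4 and 93.5 CPM in KO recovery, 82.2 and 81.8 CPM in KO heat shock, 18.4 and 16.0 CPM in WT recovery, and 61.3 and 54.3 CPM in WT heat shock. Again WT recovery was the lowest group, with responses of 0.20 ± 0.09 (adjusted p = 0.07) in KO cells and -1.75 ± 0.11 (adjusted p = 3.7e-15) in WT cells. RRS1, which in yeast brings the 5S particle into the pre-60S subunit, was at 77.3 and 69.3 CPM in KO recovery, 58.5 and 62.9 CPM in KO heat shock, 19.3 and 18.2 CPM in WT recovery, and 55.02 and 56.8 CPM in WT heat shock. It had the same order of groups, with 0.27 ± 0.10 (adjusted p = 0.022) in KO cells and -1.58 ± 0.11 (adjusted p = 9.6e-14) in WT cells. The KO calls of URB2 and RRS1 did not hold when single libraries were left out. URB2 lost its call with any 1 of the 4 KO libraries left out (between 0.21 and 0.26), and RRS1 without KO recovery replicate 1 (0.16), without KO recovery replicate 2 (0.40) or without KO heat shock replicate 1 (0.14).

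PPAN, the human counterpart of a yeast 60S assembly factor (chr19:10106289-10111634, plus strand, GRCh38), was at 100.02 and 94.1 CPM in KO recovery, 53.6 and 51.3 CPM in KO heat shock, 24.6 and 23.1 CPM in WT recovery, and 80.9 and 64.4 CPM in WT heat shock. KO recovery was the highest group and WT recovery the lowest, and KO heat shock lay below WT heat shock. Its responses were 0.89 ± 0.09 (adjusted p = 3.1e-09) in KO cells and -1.60 ± 0.10 (adjusted p = 2.1e-14) in WT cells, and their difference of 2.49 ± 0.14 (adjusted p = 7.6e-16) was the largest of the 55 genes. PPAN shares 56.0% of its exon bases with the read-through gene PPAN-P2RY11 on the same strand, which held 10919 reads over all libraries against 11577 for PPAN, so the counts of the pair cannot be told apart. NOP16 was at 76.9 and 75.3 CPM in KO recovery, 46.7 and 45.4 CPM in KO heat shock, 38.5 and 31.6 CPM in WT recovery, and 61.6 and 62.8 CPM in WT heat shock. NOP2, the methyltransferase of 28S rRNA, was at 226 and 216 CPM in KO recovery, 171 and 169 CPM in KO heat shock, 64.4 and 63.1 CPM in WT recovery, and 132 and 110.4 CPM in WT heat shock. For both genes KO recovery was the highest and WT recovery the lowest group. The responses of NOP16 were 0.72 ± 0.10 in KO and -0.83 ± 0.10 in WT cells and those of NOP2 0.38 ± 0.09 in KO and -0.92 ± 0.10 in WT cells, all passing. The KO call of NOP2 was lost with any 1 of the 4 KO libraries left out (between 0.36 and 0.40).

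PES1, BOP1 and WDR12 form the PeBoW complex, which is needed for processing of the 28S precursor. PES1 was at 239 and 209 CPM in KO recovery, 158 and 169 CPM in KO heat shock, 98.3 and 99.0 CPM in WT recovery, and 215 and 169 CPM in WT heat shock. BOP1, the lowest of the members per kilobase, was at 12.45 and 10.1 CPM in KO recovery, 7.75 and 6.71 CPM in KO heat shock, 15.0 and 13.9 CPM in WT recovery, and 21.0 and 19.3 CPM in WT heat shock. Both rose in KO recovery, by 0.45 ± 0.10 for PES1 and 0.63 ± 0.13 for BOP1, and both fell in WT recovery, by -0.95 ± 0.10 for PES1 and -0.48 ± 0.12 for BOP1. For BOP1 both KO groups were below both WT groups. The gene ID of BOP1 in the counts is absent from GENCODE v29, so its overlaps with other genes were not searched. Whether its counts cover the whole gene was not tested. The KO call of PES1 was lost without KO recovery replicate 1 (0.33) or KO heat shock replicate 1 (0.30). WDR12 passed in neither line, at -0.12 ± 0.09 in KO and -0.17 ± 0.10 in WT cells.

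NOC3L, whose yeast counterpart pairs with that of NOC2L in pre-60S transport, was at 77.3 and 83.5 CPM in KO recovery, 122 and 123 CPM in KO heat shock, 73.1 and 76.6 CPM in WT recovery, and 51.8 and 59.3 CPM in WT heat shock. KO heat shock was its highest and WT heat shock its lowest group. It fell in KO recovery by -0.61 ± 0.09 (adjusted p = 2.3e-06) and rose in WT recovery by 0.43 ± 0.10 (adjusted p = 0.00032). GNL3 (nucleostemin, a nucleolar GTPase) was at 303 and 331 CPM in KO recovery, 379 and 358 CPM in KO heat shock, 258 and 252 CPM in WT recovery, and 195 and 209 CPM in WT heat shock. Its WT rise of 0.34 ± 0.10 (adjusted p = 0.0036) was lost without WT recovery replicate 1 (0.25) or WT heat shock replicate 1 (0.24), and the KO value of -0.22 ± 0.09 did not pass. BRIX1 was at 114 and 126 CPM in KO recovery, 166 and 166 CPM in KO heat shock, 65.2 and 69.9 CPM in WT recovery, and 70.9 and 80.5 CPM in WT heat shock. It fell in KO recovery by -0.47 ± 0.09 (adjusted p = 0.0001), lost without KO recovery replicate 1 (-0.37) or KO heat shock replicate 1 (-0.39), with -0.16 ± 0.10 in WT cells. MRTO4, which holds the place of a stalk protein in the pre-60S particle, was at 187 and 184 CPM in KO recovery, 168 and 169.8 CPM in KO heat shock, 44.2 and 43.2 CPM in WT recovery, and 92.6 and 89.0 CPM in WT heat shock. Each KO library was above each WT library, and of its responses the WT one passed, at -1.05 ± 0.10 (adjusted p = 9e-11), and the KO one of 0.14 ± 0.09 did not. In the remaining 60S genes, NIP7 (-1.15), NOC2L (-0.68), URB1 (-0.63), DDX56 (-0.58), GNL2 (-0.27) and RRP1B (-0.27) fell in WT recovery. The values there for DDX18 (-0.22) and EBNA1BP2 (-0.18) did not pass. In KO recovery RRP1B (-0.36) and DDX18 (-0.38) fell and EBNA1BP2 (0.26) rose. These 3 KO calls were each lost with any 1 of the 4 KO libraries left out, with values between -0.37 and -0.32 for RRP1B, between -0.38 and -0.36 for DDX18, and between 0.17 and 0.34 for EBNA1BP2. The WT calls of GNL2 and RRP1B were lost without either library of WT replicate 2 (-0.20 and -0.21 for GNL2, -0.23 and -0.23 for RRP1B).

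Between the lines, nearly all members were higher in KO than in WT cells after recovery. 50 were higher and 1 was lower, with a median log2 fold change of 0.83 against -0.01 over all genes, of which 31.8% were higher and 31.3% lower. 21 of the 50 were at least 2-fold higher, as were 8.48% of all genes. MRTO4 (2.09 ± 0.08, adjusted p = 2.5e-11), GRWD1 (2.46 ± 0.10, adjusted p = 3.9e-11) and URB2 (2.29 ± 0.10, adjusted p = 5.2e-11) had the lowest p-values of the members, and the values of PPAN (2.02), RRS1 (1.97) and NOP56 (1.77) were also large. BOP1 was the lower one, at -0.36 ± 0.13 (adjusted p = 0.027), a call lost without KO recovery replicate 2 (-0.20) or WT recovery replicate 1 (-0.31). The values of NPM1 (0.17 ± 0.09), HEATR1 (0.02 ± 0.09), WDR36 (0.14 ± 0.09) and NOC3L (0.10 ± 0.09) did not pass. By role, 5 of 6 genes of ribosomal DNA transcription, 8 of 8 of the snoRNPs, 12 of 14 of the small-subunit processome, 6 of 6 of late 40S maturation and 19 of 21 of 60S assembly were higher in KO cells. GAR1 lost that call without KO recovery replicate 2 (0.28) or WT recovery replicate 2 (0.35), and upper-quartile scaling ended the calls of GAR1 (0.23), DDX21 (0.16), GNL3 (0.15) and NOB1 (0.15). These libraries are also those of the recovery responses above, so the comparisons are not independent of each other.

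At heat shock the lines differed less. 31 members were higher and 9 lower in KO than in WT cells, with a median of 0.39 against -0.03 over all genes, of which 27.4% were higher and 28.2% lower. The count of 9 became 14 without WT heat shock replicate 2. WDR75 (1.22 ± 0.09, adjusted p = 2.3e-08), NOC3L (1.14 ± 0.09, adjusted p = 5.9e-08) and UTP20 (1.10 ± 0.09, adjusted p = 7.1e-08) were the clearest of the higher ones, and NHP2 (-1.49 ± 0.12, adjusted p = 7.6e-08), BOP1 (-1.48 ± 0.13, adjusted p = 2.4e-07) and FBL (-0.82 ± 0.10, adjusted p = 8.1e-06) of the lower ones. 28 members were higher in KO cells at both times, as were 10.9% of all genes. Of these, EBNA1BP2 lost its heat shock call with any 1 of 5 libraries left out, both of KO heat shock, both of WT recovery and WT heat shock replicate 1 (between 0.16 and 0.26). NIP7 lost it without KO heat shock replicate 2 (0.28) and TSR1 without KO heat shock replicate 1 (0.28). FBL, NHP2, NOP10, TBL3, NAT10, NOB1, NOP16 and PPAN were lower in KO cells at heat shock and higher after recovery, as were 8.97% of all genes. Another 14 were higher after recovery and did not pass at heat shock, among them NOP56 (-0.10), BYSL (-0.01) and URB2 (0.13). The share of all genes with that combination was not computed. The calls at heat shock of NOP10 (-0.22) and NOB1 (-0.29) and of NAT10 (-0.25) were lost without KO heat shock replicate 1, and the call of NOB1 after recovery without KO recovery replicate 1 (0.26) or WT recovery replicate 2 (0.26).

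**Figure D3:**
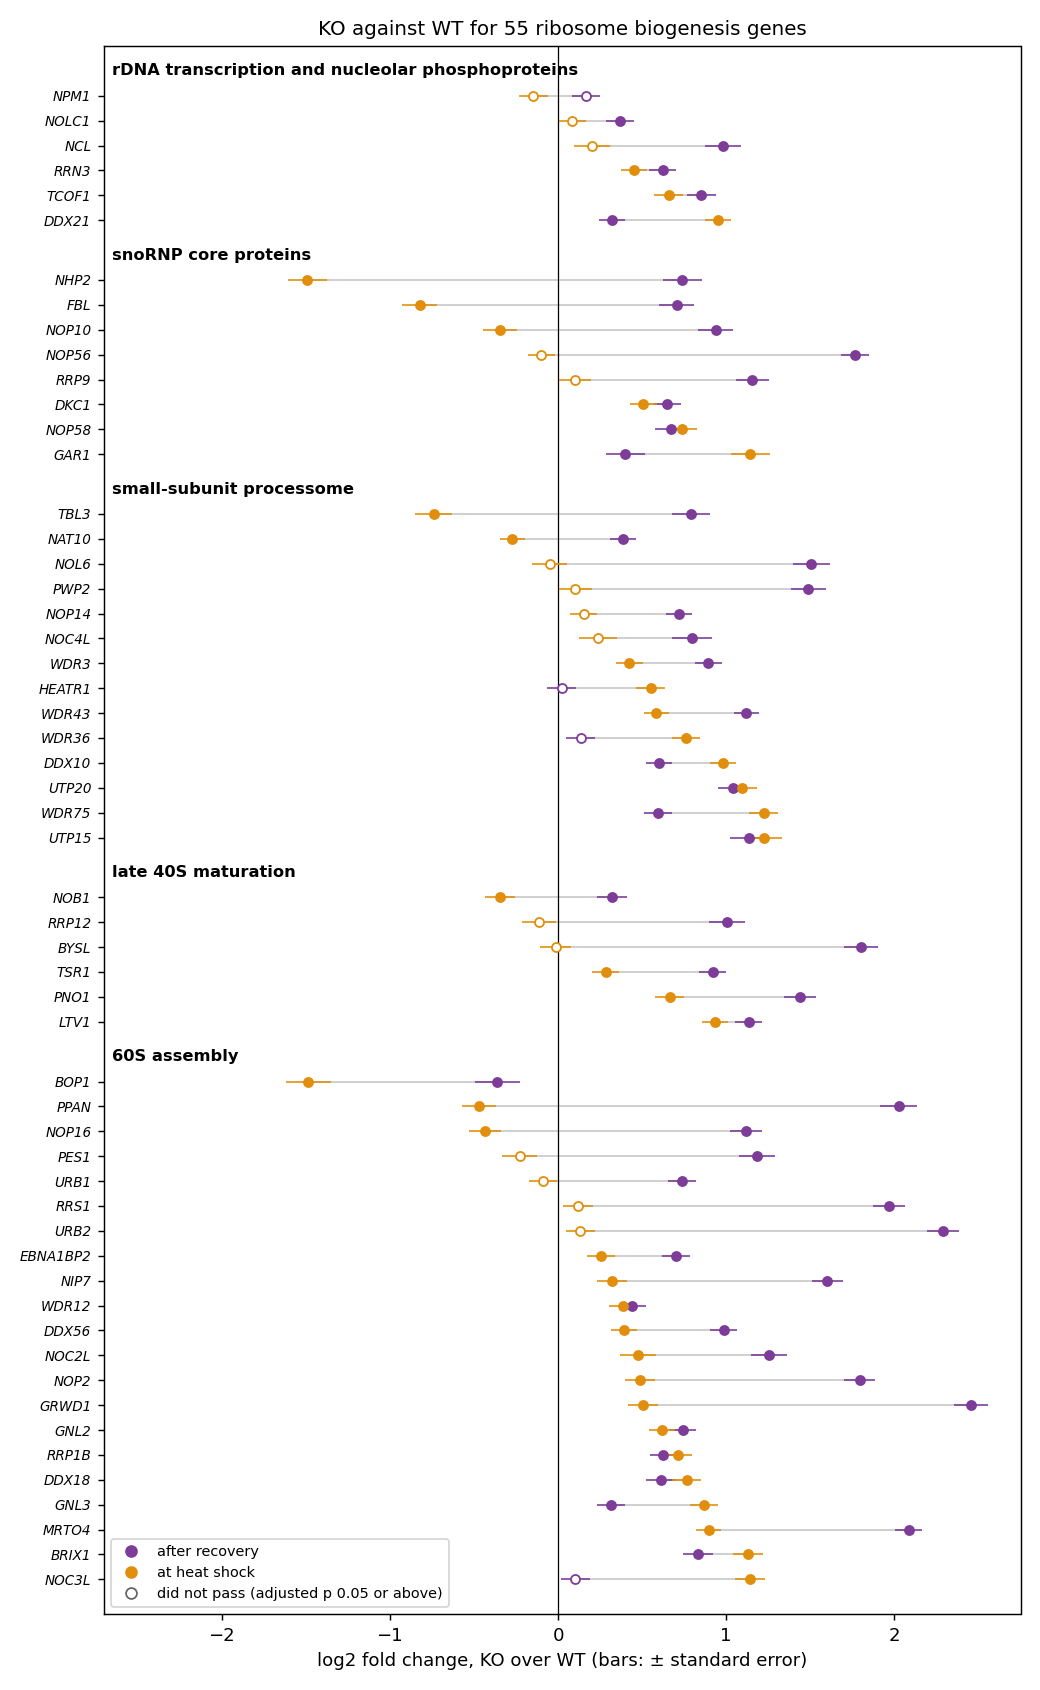
Log2 fold change of KO over WT cells (x axis) for the 55 genes (rows, grouped by role), after recovery (purple) and at heat shock (orange). Points are fitted values, bars ± 1 standard error, open points did not pass; after recovery 50 genes are higher in KO cells, and BOP1 is lower at both times.

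The responses of the members went with the base composition of their transcripts in both lines, and with transcript length in KO cells. Across the 55 genes, the log2 fold change of recovery correlated with the G+C share of the longest transcript with r = 0.73 in KO cells and r = -0.57 in WT cells (a description across genes that share the same libraries). With the log2 length of the transcript it correlated with r = -0.46 in KO cells and r = 0.07 in WT cells. Members with a G+C share over 55% had a median response of 0.49 in KO cells and -0.87 in WT cells, and members under 45% had -0.22 in KO cells and -0.17 in WT cells. Across coding genes in general the trend had the same direction, with medians of 0.24 in KO and -0.30 in WT cells for 4191 genes over 55%, and -0.32 in KO and 0.23 in WT cells for 4825 genes under 45%. In WT cells the members under 45% thus had a negative median and the coding genes under 45% a positive one. The 12 members that fell in KO recovery had a median G+C share of 40.8%, and the 19 that rose 57.1%. Short transcripts moved as well: 404 tested coding genes with a transcript under 1000 bases had a median of 0.51 in KO and -0.23 in WT cells, and NHP2 (865 bases) and NOP10 (554 bases) are of that length. The labels do not say which libraries were selected by poly-A tail and which by removal of ribosomal RNA.

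With offsets that remove the trend of each library with G+C share and length, the main split held its direction. In KO recovery 21 members rose and 5 fell (20.4% and 15.7% of all genes), and in WT recovery 1 rose and 46 fell (21.7% and 27.3%). The difference passed for 43 members toward KO and 2 toward WT (29.1% and 21.7%), and 53 members were higher and 1 lower in KO cells after recovery (33.9% and 31.4%). With the offsets 20 members rose in KO and fell in WT recovery. Without the offsets 11.9% of all genes did so, and the share with the offsets was not computed. Among the 20 members were NPM1 (0.28 in KO and -0.30 in WT cells), WDR12 (0.29 and -0.48), WDR3 (0.34 and -0.88), RRN3 (0.20 and -0.51) and NIP7 (0.19 and -1.15), which had not passed in KO recovery without the offsets. 15 of the 18 genes that did so without the offsets kept both calls, all but RRP9, NOB1 and RRS1, and the KO rise of EBNA1BP2 and the WT fall of TCOF1 were lost too. Of the pair that did the reverse, GAR1 kept both calls and NOC3L kept the KO call. In contrast, the falls of NOP58, DDX18, BRIX1, WDR75, UTP20, WDR36, LTV1 and DDX21 in KO recovery were lost, and so were the rises of HEATR1, GNL3, NOC3L and DDX10 in WT recovery. NHP2 kept a KO rise of 1.22, and the calls of NOP10, NOB1, NOP16 and PPAN as lower in KO cells at heat shock were lost. At heat shock the calls of RRN3 (0.065), WDR3 (0.030), WDR43 (0.15) and WDR12 (-0.016) as higher in KO cells were lost as well.

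**Figure D4:**
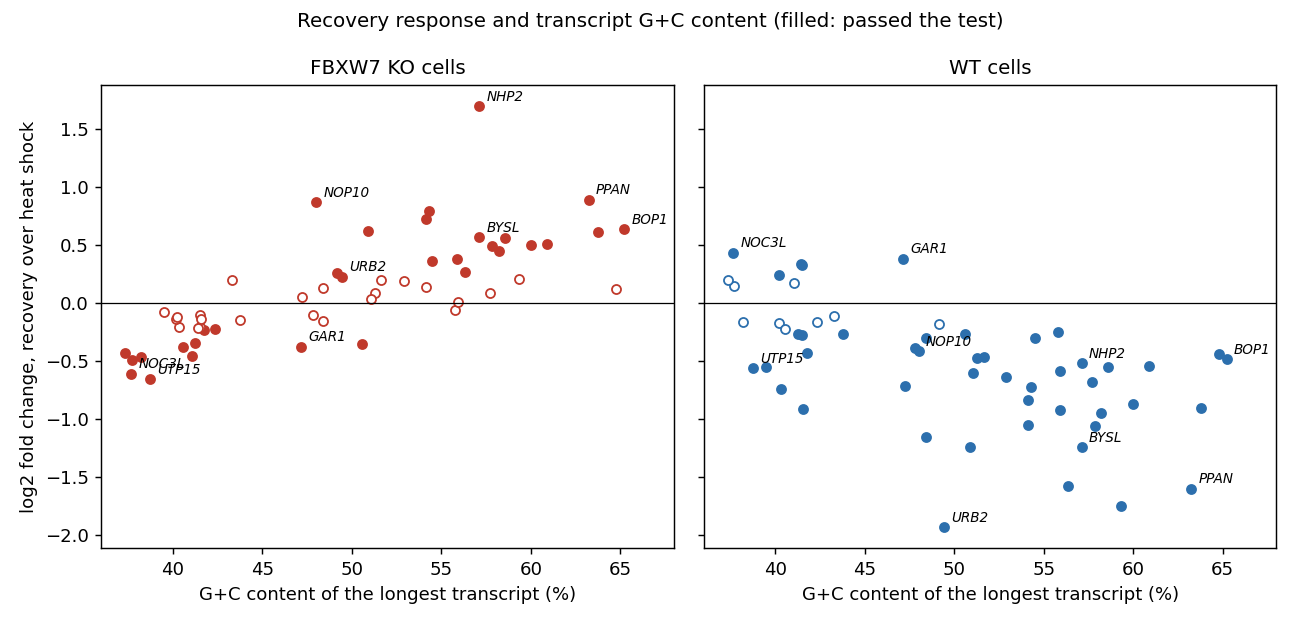
Log2 fold change of recovery over heat shock (y axis) against the G+C share of the longest transcript in percent (x axis) for the 55 genes, in FBXW7 KO cells (left) and WT cells (right). Each point is a gene, filled where the test passed; the points climb with G+C share in KO cells (r = 0.73) and descend in WT cells (r = -0.57).

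Some members lie on the same bases as another gene, in a search that could not include BOP1. On the opposite strand, an overlap of over 15% of the exon bases of the member was found for TBL3 with NOXO1 (29.9%), NHP2 with RMND5B (27.4%), HEATR1 with LGALS8 (23.2%), TSR1 with SRR (20.7%), NOB1 with AC092115.3 (20.2%), NIP7 with COG8 (20.2%), EBNA1BP2 with CFAP57 (18.8%), WDR3 with SPAG17 (17.1%) and NOP14 with NOP14-AS1 (17.1%). The libraries are strand-specific per the labels, but how the counting used strand is unknown here. Reads of these pairs may have been shared. RMND5B rose in KO recovery by a log2 fold change of 2.02 (adjusted p = 8.1e-17) and fell in WT recovery by -0.54 (adjusted p = 3.9e-05), as NHP2 did, and its part in the values of NHP2 was not tested. Named pseudogene copies held 3.41% as many reads as RRN3 and 0.104% as many as NPM1.

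Other assembly factors that are not among the 55 were read from lists of their own, also chosen with earlier results of these data known. Of 40 other 40S factors, 9 rose and 11 fell in KO recovery and 4 rose and 26 fell in WT recovery. Of 44 other 60S factors, 9 rose and 13 fell in KO recovery, and 4 rose and 26 fell in WT recovery. Of 17 genes of the RNA exosome, which trims rRNA precursors, and its cofactors, 5 rose and 6 fell in KO recovery, and 2 rose and 6 fell in WT recovery. The medians were -0.07, -0.06 and -0.04 in KO recovery, in that order, and -0.38, -0.39 and 0.04 in WT recovery. After recovery 32 of the 40S list, 34 of the 60S list and 8 of the exosome list were higher in KO than in WT cells, and 3, 3 and 2 were lower. Of all genes 31.8% were higher and 31.3% lower in that comparison. The counts of these lists that rose and fell in KO recovery stand beside 21.0% and 21.8% of all genes, and those in WT recovery beside 25.2% and 26.4%. IMP4, a U3 snoRNP protein, fell by -1.08 ± 0.10 in WT recovery, and RIOK3, an atypical kinase of the pre-40S particle, rose there by 0.97 ± 0.10. EXOSC4, a ring subunit of the exosome, rose by 1.08 ± 0.12 in KO recovery and fell by -1.27 ± 0.13 in WT recovery.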

How the data were processed

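Gene-level RNA-seq was available for 8 libraries, 2 in each of 4 groups taken from the labels. The deposited tables, 4 in all, hold whole-number read counts per gene for a recovery library and its matched heat shock library, with a log2 ratio and p-values that were not used here. Per the labels' protocols the libraries were strand-specific, made by the dUTP method and read as 50-base single reads. CASAVA, TopHat and the build hg19 are named in the submitters' processing notes, without roles. The counting tool and its strand setting were not given in the sources used here. Which column is recovery was read from the order of names in each table's title and from its log2 ratio. Entries given as NA were read as 0.

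The deposited counts were joined by gene and tested with edgeR 4.0.16 in R 4.3.3 (quasi-likelihood F test, robust), after edgeR's default filter on low counts and TMM scaling, in 1 fit over all 8 libraries with Benjamini-Hochberg adjustment over 17471 genes. The threshold was an adjusted p under 0.05. Recovery responses and their difference were fitted with a block for line and replicate number (2 residual degrees of freedom), since the series' design text compares matched pairs. KO against WT was fitted on groups alone (4 residual degrees of freedom). Values printed with ± are log2 fold changes and their standard errors, and CPM use TMM-scaled library sizes. The fit was tested on simulated data. Replicates correlated at 0.991 to 0.995 over log2 CPM. Their counts differed beyond sampling noise (chi-square divided by its degrees of freedom, 1.99 to 13.2).

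Alternatives were DESeq2 1.42.0 (size factors and Wald test), upper-quartile scaling, no filter, the fit with the block switched, offsets for G+C share and length, and each library left out. The 55 members, their roles, the lists and the markers were chosen with earlier results of these data known. Values in every library are given for the 6 members of lowest p in each direction in both recoveries and their difference, the 3 in each direction in KO against WT, the members that moved oppositely in the 2 lines, and NCL, NPM1 and FBL. Transcript lengths and coordinates are those of GENCODE v29 on GRCh38, matched by gene ID for 54 members. BOP1 was matched by symbol for length. Promoter sequences are from RefSeq on GRCh38.p14.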

Additional observations from a re-analysis of the deposited data

Results flagged for a closer look

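The recovery response differed between the lines, by the test of the difference itself, for 41 of the 55 members. Of all genes tested, 28.7% passed that test toward KO and 28.1% toward WT. With a difference of at least 2-fold these shares were 12.5% and 13.8%. The values here are log2 differences, the response of KO cells minus that of WT cells, so a positive value means that the KO response lay above the WT response, whatever the levels. Differences of at least 2-fold on the KO side were those of PPAN (2.49), NHP2 (2.21), URB2 (2.16), GRWD1 (1.95), NOP56 (1.86), RRS1 (1.85), BYSL (1.81), NOP16 (1.56), NOL6 (1.55), TBL3 (1.52), FBL (1.52), PES1 (1.40), PWP2 (1.37), NOP2 (1.30), NOP10 (1.28), NIP7 (1.28), MRTO4 (1.19), BOP1 (1.11), RRP12 (1.11) and RRP9 (1.05). Smaller ones on the same side were those of URB1 (0.82), PNO1 (0.78), NCL (0.77), NOC2L (0.77), NOB1 (0.67), NAT10 (0.66), TSR1 (0.64), DDX56 (0.59), NOP14 (0.57), NOC4L (0.56), WDR43 (0.54), WDR3 (0.47) and EBNA1BP2 (0.44). On the WT side were NOC3L (-1.04), GAR1 (-0.76), WDR75 (-0.63), DDX21 (-0.63), WDR36 (-0.63), GNL3 (-0.55), HEATR1 (-0.53) and DDX10 (-0.38). The largest adjusted p among the 41 was 0.013 (edgeR), for DDX10. Leaving out KO recovery replicate 1 or KO heat shock replicate 1 ended the calls of GNL3 (-0.42 and -0.45), HEATR1 (-0.39 and -0.42), NOC4L (0.43 and 0.40), EBNA1BP2 (0.39 and 0.36) and DDX10 (-0.30 and -0.33). Leaving out KO recovery replicate 2 or KO heat shock replicate 2 ended those of DDX10 (-0.43 and -0.43) and WDR3 (0.43 and 0.43). With offsets for G+C share and length the calls of DDX21, DDX56, GNL3, NOB1, NOC4L, HEATR1 and WDR75 were lost, and DDX10 (0.34) and WDR36 (0.28) passed on the KO side. 30 of the 41 passed in the same direction in all 14 alternatives.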

How the results depend on the processing

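Of the members that passed, those that kept direction and call in all 14 alternatives (8 of them a left-out library) were 12 of 31 in KO recovery, 33 of 46 in WT recovery, 30 of 41 for the difference of the responses, 28 of 40 for KO against WT at heat shock and 46 of 51 after recovery. In the recovery responses, leaving out either library of a pair removes that pair from the response. The left-out fits of the same pair are thus not separate checks. With 2 libraries a group, log2 changes of about 0.2 to 0.4 were those most often lost.

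The replicate numbers did not pair the libraries in the data: deviations of same-numbered recovery and heat shock libraries correlated at -0.0138 in KO and -0.0156 in WT cells. The block follows the series' design text. With no replicate block, 20 members rose and 14 fell in KO recovery, 5 rose and 42 fell in WT recovery, and 35 and 8 differed. With a replicate block in KO against WT the counts stayed at 31 and 9 at heat shock and 50 and 1 after recovery.

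Offsets for G+C share and length gave 5 members lower in KO recovery, 1 higher in WT recovery, 2 with a difference toward WT, and medians of 0.32 (KO against WT at heat shock) and 0.85 (after recovery). With these offsets the sign turned for DDX18 (0.017), RRS1 (-0.031), UTP20 (0.11) and WDR36 (0.063) in KO recovery, for DDX10 (-0.070) in WT recovery, for DDX10 (0.34), HEATR1 (0.094), WDR36 (0.28) and WDR75 (0.19) in the difference, and for WDR12 (-0.016) in KO against WT at heat shock. The cause was not tested.

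Upper-quartile scaling moved the median of all genes to 0.10 in WT recovery, -0.14 in the difference and -0.18 in KO against WT after recovery. The members' medians then were -0.39 in WT recovery and 0.66 in KO against WT after recovery, and 8 members rose in WT recovery. The WT recovery median was -0.46 with DESeq2 size factors and with the DESeq2 Wald test and -0.53 with no filter. KO against WT after recovery had a median of 0.83 with DESeq2 size factors and with the Wald test and 0.92 with no filter, and 0 members lower with no filter and with the Wald test.

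Leaving out each library in turn gave 10 to 23 members higher and 2 to 15 lower in KO recovery with a median of -0.00034 to 0.11, and 1 to 5 higher in WT recovery with a median of -0.498 to -0.452. It gave 5 to 9 members with a difference toward WT. In KO against WT it gave 6 to 14 lower and a median of 0.30 to 0.39 at heat shock, and 0 to 1 lower and a median of 0.82 to 0.86 after recovery. NCL in KO recovery was then between -0.0032 and 0.11, and over all 14 alternatives it reached at most 0.17 and did not pass.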

Other observations

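Reads assigned to named pseudogene copies of NHP2 numbered 1 and 3 in KO recovery, 1 and 0 in KO heat shock, 24 and 29 in WT recovery, and 1 and 2 in WT heat shock. That is 1.20% and 1.51% as many as NHP2 itself in the WT recovery libraries and at most 0.0689% in the other 6. The copies of NPM1 held 12 and 21 reads in KO recovery, 21 and 70 in KO heat shock, 67 and 72 in WT recovery, and 16 and 12 in WT heat shock. For NHP2 both WT recovery libraries held more such reads than any other library. For NPM1 they and KO heat shock replicate 2 held the most. Reads shared with copies in other ways were not measured.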
